A study of Mus musculus with 6 samples.

Results

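Stefin A genes and genes known from neutrophils were examined in peritoneal macrophages (PEMs) with and without Tim-4. The 10 genes were Stfa1, Stfa2, Stfa3, Stfa2l1, S100a8, S100a9, Ly6g, Retnlg, Cxcr2 and Lcn2. They were chosen from the contrast described here, because Stfa3 was among its largest decreases, so their own differences are given as a description and with no test. Of the 10 genes, 6 had a row among the 15415 genes of the deposited table. Stfa1, Stfa2, Stfa2l1 and Ly6g had no row under their symbol or their Entrez gene ID and were not analysed here.

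The series holds 6 RNA libraries. The 3 knockout libraries came from animals with the genotype LysM-Cre; Tim-4 fl/fl, and the 3 control libraries from Tim-4 fl/fl animals without Cre. The study used male C57BL/6J mice of 6 to 8 weeks and harvested PEMs 3 days after an intraperitoneal injection of starch. The treatment entry of all 6 libraries is lps, and the methods describe lipopolysaccharide activation without saying whether the sequenced cells received it. The groups were taken from the sample titles, since the genotype entry names them the other way round. LysM-Cre acts in macrophages and also in granulocytes, the floxed part of Tim-4 lies between intron 1 and intron 3, and the controls lack Cre, so the presence of Cre and the loss of Tim-4 cannot be told apart. Nothing in the labels says how many mice gave each library, and any p-value then measures only the spread between these libraries.

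Stefins are small cytosolic proteins that block cysteine cathepsins, the proteases of lysosomes. The mouse has a cluster of stefin A genes on chromosome 16 that arose by duplication and is known for high expression in neutrophils and their precursors. S100a8 and S100a9 encode the subunits of calprotectin, a calcium-binding complex that neutrophils carry in large amounts and monocytes in smaller amounts. Lcn2 encodes lipocalin 2, which binds bacterial siderophores and is made by neutrophils, macrophages and epithelia. Retnlg encodes resistin-like gamma, Cxcr2 the chemokine receptor that draws neutrophils out of the blood, and Ly6g the surface protein that defines mouse neutrophils.

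The start regions of the stefin A genes are shown because 3 of the 4 stefin A genes had no row. The bases before the start are not part of the transcript, so their likeness does not show whether reads of the copies can be told apart. RefSeq GRCm38.p6 gave promoter windows, 250 bases before to 50 bases after the start, for all 10 genes. The windows of Stfa1, Stfa2 and Stfa2l1 were 81.0%, 80.9% and 80.9% identical to that of Stfa3 over aligned positions. The window of Cstdc4, another stefin of the cluster, was 67.9% identical, and that of Csta2, also of the cluster, was 45.6% identical. Bases -80 to 16 around the start follow, each on its gene's own strand, from chr16:36455377-36455472 (minus strand) for Stfa3, chr16:36277068-36277163 (plus) for Stfa1, chr16:36408348-36408443 (minus) for Stfa2, chr16:36156731-36156826 (plus) for Stfa2l1 and chr16:36184132-36184227 (plus) for Cstdc4. Capitals mark the longest run of letters, 17 bases, that the 4 stefin A windows share.
Stfa3: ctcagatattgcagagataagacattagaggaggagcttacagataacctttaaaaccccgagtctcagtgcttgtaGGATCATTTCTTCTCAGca
Stfa1: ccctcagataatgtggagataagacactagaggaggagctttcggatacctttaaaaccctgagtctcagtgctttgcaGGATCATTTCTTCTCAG
Stfa2: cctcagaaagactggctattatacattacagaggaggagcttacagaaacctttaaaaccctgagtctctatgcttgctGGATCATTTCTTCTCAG
Stfa2l1: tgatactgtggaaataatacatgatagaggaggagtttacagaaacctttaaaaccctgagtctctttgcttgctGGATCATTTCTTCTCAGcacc
Cstdc4: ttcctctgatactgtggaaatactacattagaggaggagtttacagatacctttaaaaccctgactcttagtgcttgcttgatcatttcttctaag

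The run lies across the start site and was found in 6 of 32851 promoter windows (0.0183%), all of them stefin or cystatin genes of the cluster, Csta3 and Cstdc5 besides the 4 above. No stretch of 50 bases of the Stfa3 transcript (GENCODE M21, 412 bases) occurred unchanged in the transcript of Stfa1, Stfa2, Stfa2l1 or the other stefins compared, and the longest shared run was 28 bases, with Stfa1. Over aligned positions the transcripts of Stfa1, Stfa2 and Stfa2l1 were 65.6%, 61.8% and 80.0% identical to that of Stfa3. The counting of the authors is not given in the sources used here, so reads split among these copies remain a source of uncertainty for Stfa3 and its relatives.

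Stfa3, the 1 stefin A gene of the 4 with a row, was far lower in the knockout libraries. Its level was 43.8, 50.5 and 13.1 FPKM (fragments per kilobase of gene, scaled to the counted reads of the library) in control replicates 1, 2 and 3, and 0.520, 1.09 and 3.32 FPKM in knockout replicates 1, 2 and 3. Every control library lay above every knockout library, with control replicate 3 the lowest control and knockout replicate 3 the highest knockout. The means were 35.8 ± 20.0 FPKM in control and 1.64 ± 1.48 FPKM in knockout PEMs (SD, n = 3 each), a 21.8-fold ratio of control to knockout. These values rest on 712, 811 and 195 reads in the control and on 9, 19 and 56 reads in the knockout libraries. The fitted log2 fold change, knockout minus control on the log2(FPKM + 1) scale, was -3.74 (SE 0.56), the place 6 among the decreases of 9030 genes. It stayed between -4.33 and -3.39 when each library was left out in turn.

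S100a8, the calprotectin subunit with the highest level of the listed genes in control cells, was also lower in the knockout libraries, and its controls were close together. It measured 171, 156 and 156 FPKM in the control libraries and 52.9, 39.9 and 70.5 FPKM in the knockout libraries, so the groups did not overlap. The means were 161 ± 8.62 and 54.4 ± 15.4 FPKM (SD, n = 3 each), a 2.95-fold ratio of control to knockout. The log2 fold change was -1.58 (SE 0.21) and stayed between -1.78 and -1.38 with each library left out. Control replicate 3, where Stfa3 was lowest among the controls, was not low for S100a8.

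S100a9, the partner subunit of calprotectin, overlapped between the groups. It stood at 0, 2.30 and 5.12 FPKM in the control libraries and at 0.953, 0.949 and 1.21 FPKM in the knockout libraries, from 0, 47 and 97 reads against 21, 21 and 26 reads. The knockout values lay inside the control range, and the control libraries differed more among themselves than the groups did. No read was counted for S100a9 in control replicate 1, which allows up to 3 reads or 0.145 FPKM, while the same library had 2641 reads of S100a8. The log2 fold change was -0.42 with a 95% interval from -1.78 to 0.94, and its size and sign depended on single libraries and on the scale. It was -1.14 without control replicate 1, the library with no S100a9 read, and 0.16 without control replicate 3. With a pseudocount of 0.1 it was 0.07, and by voom on the recovered reads it was 0.75. Within a library S100a8 exceeded S100a9 by 42.0 to 58.1 times in the knockout group, by 67.5 times in control replicate 2, by 30.5 times in control replicate 3 and by at least 1177 times in control replicate 1, where the floor of 3 reads was used for S100a9. Both levels are per length of gene.

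**Figure D1:**
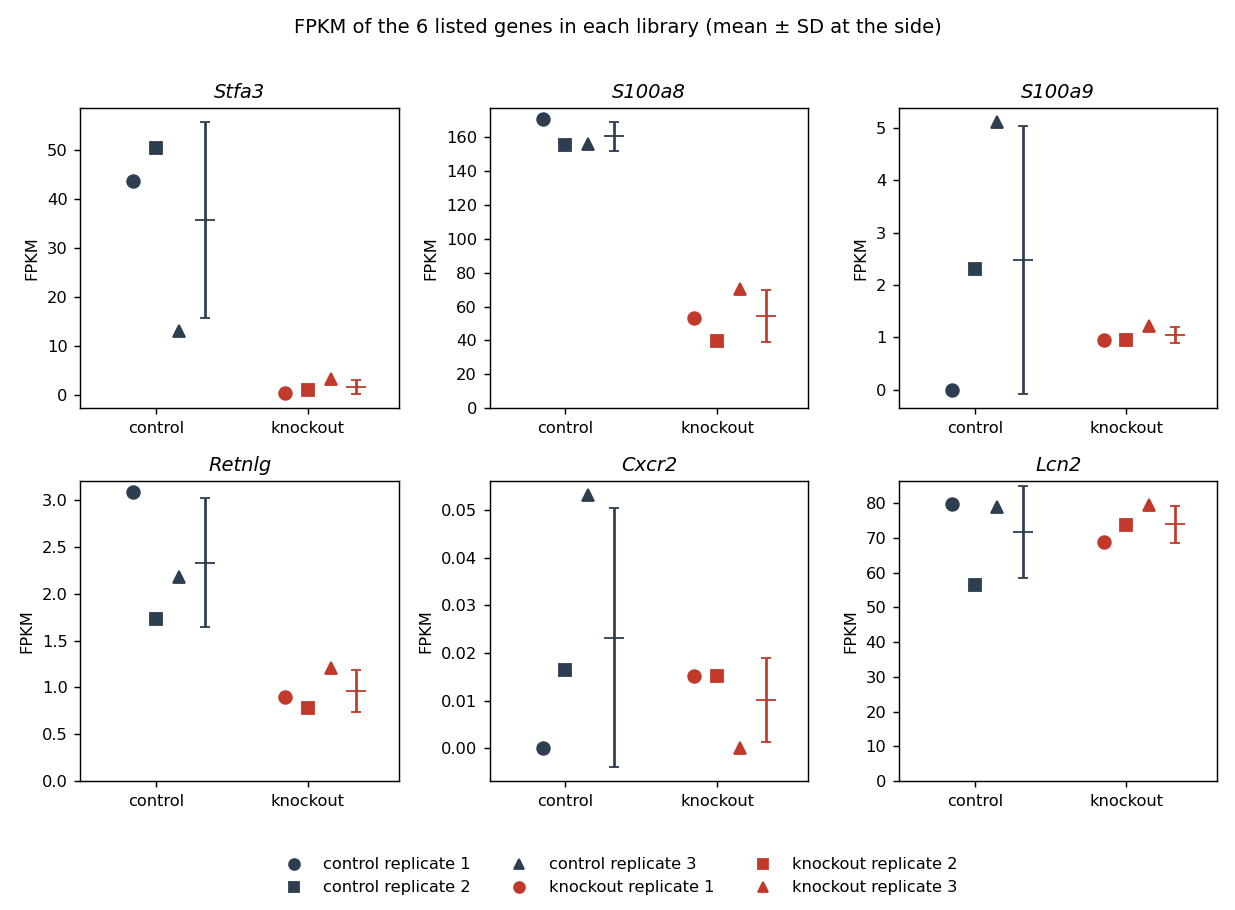
FPKM of Stfa3, S100a8, S100a9, Retnlg, Cxcr2 and Lcn2 in each of the 3 control and 3 knockout libraries, on a linear axis of its own for each gene, with the mean ± SD beside the points. Stfa3, S100a8 and Retnlg show no overlap between the groups, while S100a9, Cxcr2 and Lcn2 do.

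The start regions of S100a8 and S100a9 are shown because the genes lie close together on chromosome 3 and form 1 complex. Their 300-base windows were 48.8% identical over aligned positions. Capitals mark matches on either strand to TATAAA, to GAGGAA, the core letters of sites for the myeloid factor PU.1, and to TTGCNNAA, letters of C/EBP-type sites. These motifs were present in 13.6%, 28.3% and 10.8% of the 32851 windows. The windows are chr3:90668821-90669120 (plus strand) for S100a8 and chr3:90695672-90695971 (minus strand) for S100a9 in GRCm38.p6.
S100a8: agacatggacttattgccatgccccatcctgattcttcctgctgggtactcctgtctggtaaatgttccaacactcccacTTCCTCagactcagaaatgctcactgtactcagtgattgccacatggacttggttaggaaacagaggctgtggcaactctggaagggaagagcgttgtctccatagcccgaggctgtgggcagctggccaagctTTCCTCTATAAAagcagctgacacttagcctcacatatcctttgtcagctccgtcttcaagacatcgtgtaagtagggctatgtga
S100a9: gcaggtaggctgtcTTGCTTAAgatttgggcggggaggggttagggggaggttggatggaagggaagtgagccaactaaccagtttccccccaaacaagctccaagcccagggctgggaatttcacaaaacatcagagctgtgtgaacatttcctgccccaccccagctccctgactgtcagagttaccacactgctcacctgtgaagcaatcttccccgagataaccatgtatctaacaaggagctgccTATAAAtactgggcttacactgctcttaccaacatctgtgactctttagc

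S100a8 held 2 matches to GAGGAA on the minus strand, the second directly before TATAAA, and none to TTGCNNAA. S100a9 held 1 match each to TTGCNNAA and TATAAA and none to GAGGAA. Among the windows of the other genes with a row, Stfa3 and Lcn2 held 1 match to GAGGAA each, Cxcr2 held 2, and Retnlg held none. Retnlg and Lcn2 held 1 match to TTGCNNAA each, and Stfa3 and Cxcr2 held none. A match describes letters and was not tested as a site.

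Retnlg was low in all libraries and lower in the knockout group. It measured 3.08, 1.73 and 2.18 FPKM in the control libraries and 0.900, 0.779 and 1.21 FPKM in the knockout libraries, from 41 to 74 reads against 20 to 30 reads. The groups did not overlap, and the log2 fold change was -0.75 (SE 0.18). It was -1.18 with a pseudocount of 0.1 and -1.09 by voom on the recovered reads. Its transcript was 82.5% identical to that of Retnla, a marker of alternatively activated macrophages, and the longest run the transcripts share was 49 bases. Retnla itself stood at 3428, 1507 and 98.5 FPKM in the control libraries and at 8.71, 8.62 and 15 FPKM in the libraries of the knockout group. The part of reads shared with Retnla in the level of Retnlg was not tested.

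Lcn2 was nearly level between the groups. It measured 79.7, 56.4 and 78.8 FPKM in the control libraries and 68.7, 73.7 and 79.4 FPKM in the knockout libraries, with control replicate 2 the lowest and control replicate 1 the highest of all 6, so the groups overlapped. The log2 fold change was 0.06 with a 95% interval from -0.33 to 0.45. Its level was below that of S100a8 in every control library, by a ratio of 0.363 to 0.505, and above it in every knockout library, by a ratio of 1.13 to 1.85.

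Cxcr2 was at the limit of detection. It had 0, 2 and 6 reads in the control libraries and 2, 2 and 0 reads in the knockout libraries, too few for the filter of the fit (a group mean of at least 1 FPKM), and no fold change is given.

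For 3 of the 5 listed genes in the fit every knockout library lay below every control library, beside 23% of all 9030 genes tested. Nothing is read from this count, since this contrast chose the genes. Their median log2 fold change was -0.75, and that of all genes was -0.11. In all, 660 genes (7.31%) passed an adjusted p of 0.05 by limma, 428 lower (4.74%) and 232 higher (2.57%) in the knockout libraries. With median-of-ratios scaling the median of all genes was 0.01 and the split was 326 lower and 343 higher. Under this scaling the log2 fold changes were -3.64 for Stfa3, -1.44 for S100a8, -0.31 for S100a9, -0.67 for Retnlg and 0.21 for Lcn2.

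**Figure D2:**
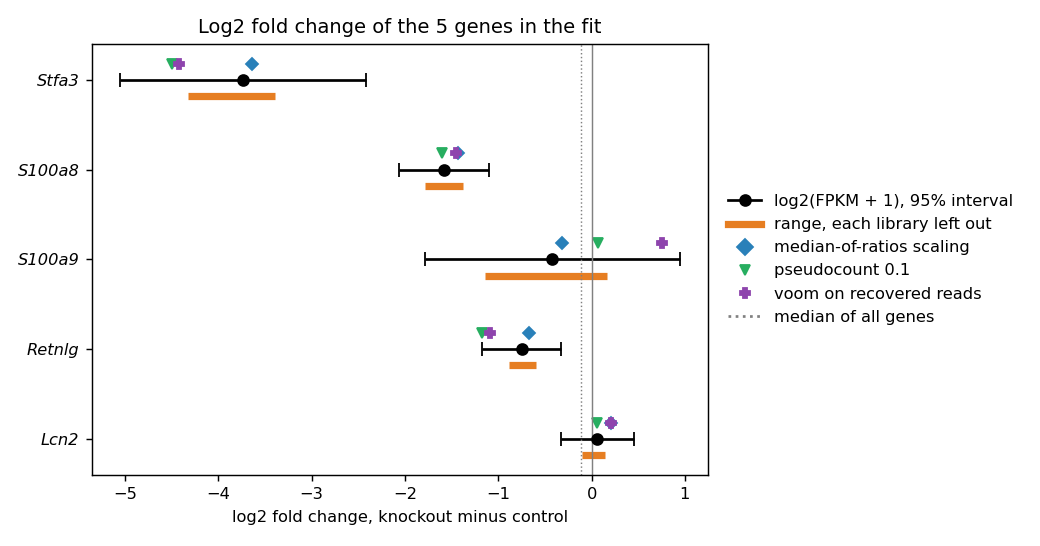
Log2 fold change, knockout minus control, of the 5 genes in the fit, with the 95% interval (black), the range when each library is left out (orange) and the values under median-of-ratios scaling, a pseudocount of 0.1 and voom. Stfa3 and S100a8 lie below 0 under every setting drawn, and S100a9 falls on both sides of 0.

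The targeted gene was lower in every library titled knockout. Timd4, which encodes Tim-4, measured 19.5, 12.0 and 1.19 FPKM in the control libraries and 0.333, 0.394 and 0.246 FPKM in the knockout libraries. Its log2 fold change was -2.66 (SE 0.74) and did not pass the threshold (limma adjusted p = 0.0715). Control replicate 3 was the lowest control for Timd4 as well as for Stfa3. Lyz2, the locus that carries the Cre, stood at 7090, 7171 and 8482 FPKM in the control libraries and at 41.4, 4656 and 106 FPKM in the 3 knockout replicates. The second of these kept a high Lyz2 level. Stfa3 in that library was 1.09 FPKM, between the values of the other knockout libraries. Between 36170767 and 42217558 reads were recovered per library, and the listed genes took 0.0080% to 0.0098% of them in the knockout and 0.0132% to 0.0155% in the control group.

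Of the markers that define neutrophils, 3 that had a row were at or near 0. Ly6g had no row, which says nothing of its level. Cxcr2 had at most 6 reads in a library, Ngp, a granule protein, had 7, 0 and 1 reads in the knockout libraries and 0 in each control library, and Ltf, lactoferrin, had at most 15 reads. Of 12 neutrophil marker names 11 had a row, and their summed level was 319 to 564 FPKM in the control and 187 to 315 FPKM in the knockout libraries. Most of that sum was S100a8, Lcn2, Mmp8 and Csf3r. Adgre1, which encodes the macrophage marker F4/80, was at 235 to 364 FPKM over all libraries, and the sum of 7 macrophage markers was 2194 to 2665 FPKM in the control and 2621 to 2876 FPKM in the knockout libraries. Cd68, a lysosomal glycoprotein, made up much of that sum, and its members went in both directions. Fcgr1, the high-affinity receptor for IgG, was the 1 of the 7 past the threshold, at 5.16, 5.76 and 6.58 FPKM in the control and 50.2, 57.5 and 36.1 FPKM in the knockout libraries. Its log2 fold change was 2.82 (SE 0.19, limma adjusted p = 0.0015), and it passed in each alternative run. Cd68 had a log2 fold change of 0.62 (SE 0.20), Cd14, the co-receptor for lipopolysaccharide, of -0.73 (SE 0.19) and Csf1r, the receptor for macrophage growth factor, of -0.71 (SE 0.22), and these 3 did not pass. The name neutrophil genes is therefore used here for what the genes are known for, and not for the cells that were sequenced.

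Genes of the same kind that were not used to choose the 10 genes were tested by limma. These lists and those below were chosen with earlier results of these data known, so their shares are given as a description. Of 51 other names known from neutrophils, 41 had a row and 29 were tested, of which 4 were lower and 2 higher in the knockout libraries, that is 13.8% and 6.9%, beside 4.74% and 2.57% of all genes. By voom 2 were lower and 2 higher, and with no filter on low values, where 41 were tested, 1 was lower and 2 were higher. The median log2 fold change of the 29 genes was -0.56. The number called fell to 1 without knockout replicate 1, to 3 without knockout replicate 2 and to 0 without control replicate 2, and it rose to 13 without control replicate 3. Of the 16 genes called in the 7 lists described next, 16 lost the call without control replicate 2, 14 without knockout replicate 1, 13 without knockout replicate 2, and 5 each without knockout replicate 3 or control replicate 1, and 0 without control replicate 3.

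Among 9 granule proteins tested, 3 were lower and none was higher, with a median log2 fold change of -0.70. Slpi, an inhibitor of neutrophil elastase, fell from 2595, 2517 and 2965 FPKM in the control libraries to 672, 355 and 1045 FPKM in the knockout libraries, a log2 fold change of -2.09 (SE 0.36, limma adjusted p = 0.021). Wfdc21, of the same protein family, fell by 1.31 on the log2 scale (SE 0.27, limma adjusted p = 0.0341), from 3.98 to 5.86 FPKM in control to 0.865 to 2.62 FPKM in knockout. It had at most 100 reads in a library, and the call was lost with no filter (adjusted p = 0.0695), by voom (0.0636) and without replicate 1 or 2 of either group. Camp, the antimicrobial cathelicidin, fell by 0.64 (SE 0.15, limma adjusted p = 0.0454) at only 9 to 37 reads per library, a call that held without knockout replicate 3 or control replicate 3 and was lost with any of the other 4 libraries left out. It was also lost with no filter (adjusted p = 0.0609), a pseudocount of 0.1 (0.0562), median-of-ratios scaling (0.0569), voom (0.116) and the replicate block (0.0529). Mmp8, neutrophil collagenase, had no stable level within a group, at 19.5, 122 and 294 FPKM in the control and 71.9, 29.2 and 127 FPKM in the knockout libraries. Like S100a9, it was lowest among all libraries in control replicate 1 and highest in control replicate 3.

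Among 11 receptors and surface proteins tested, 1 was higher and none was lower. Fcgr4, a receptor for the Fc part of IgG that monocytes and macrophages also carry, rose from 14.8, 10.5 and 8.18 FPKM to 33.9, 53.8 and 37.2 FPKM, a log2 fold change of 1.82 (SE 0.25, limma adjusted p = 0.0124). Clec4e, a receptor for mycobacterial glycolipids, was the most abundant of this list, with a log2 fold change of -0.56 (SE 0.14, limma adjusted p = 0.0522), followed by Clec4d with -0.55 (SE 0.16). Clec4e was just outside the threshold and passed as lower with a filter of 5 FPKM (adjusted p = 0.0472) or a pseudocount of 0.1. No gene of this list was called without knockout replicate 1, knockout replicate 2 or control replicate 2. Fpr1, the formyl peptide receptor that guides neutrophils to bacteria, had a log2 fold change of -1.57 (SE 0.40) and did not pass (adjusted p = 0.0585). With the replicate number as a block 3 genes of this list passed, as Fpr1 (adjusted p = 0.0217) and Trem3 (adjusted p = 0.0285), a receptor of myeloid cells, were then lower. Csf3r, the receptor for the growth factor of granulocytes, was at 20.1 to 37.7 FPKM in the control and 29.1 to 49.2 FPKM in the knockout libraries.

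Among 9 enzymes, regulators and others tested, Il1f9 was lower and Anxa1 was higher. Il1f9, a cytokine of the interleukin 1 family, fell from 29.9, 40.9 and 52.2 FPKM to 7.90, 6.50 and 7.97 FPKM, a log2 fold change of -2.28 (SE 0.21, limma adjusted p = 0.00527). Anxa1, annexin A1, which limits neutrophil entry into tissue, rose from 194, 219 and 190 FPKM to 447, 634 and 431 FPKM, a log2 fold change of 1.30 (SE 0.18, limma adjusted p = 0.0124). Acod1, the enzyme that makes itaconate, was the most abundant of the list and had a log2 fold change of -0.07 (SE 0.13).

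Within the stefin cluster, 3 of 11 stefin and cystatin genes that RefSeq places between Csta1 and Stfa3 had a row, namely Stfa3, Csta2 and Cstdc4. Csta2 measured 3.82, 7.33 and 1.62 FPKM in the control libraries and 0.0844, 0.252 and 0.693 FPKM in the knockout libraries. As for Stfa3, control replicate 2 was the highest, control replicate 3 the lowest control and knockout replicate 3 the highest knockout. Its log2 fold change was -1.84 (SE 0.40, limma adjusted p = 0.0388), from 2 to 16 reads in the knockout libraries, and the call was lost in the fits without knockout replicates 1, 2 or 3 or control replicates 1 or 2, in the fit without a filter and by voom. Cstdc4 had at most 6 reads in a library. Of the 10 tested genes nearest to Stfa3 in gene order, Csta2 and Hcls1 passed the threshold, and the log2 fold changes ran from -1.84 to 0.54. Cd86, the next tested gene on the other side of Stfa3, had a log2 fold change of 0.54 (SE 0.20).

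Stefin B, encoded by Cstb outside the cluster, had the highest level of the stefins with a row. It measured 1169, 1353 and 1439 FPKM in the control and 1156, 1127 and 1162 FPKM in the knockout libraries, a log2 fold change of -0.20 (SE 0.13) that did not pass. Stfa3 reached 3.75%, 3.74% and 0.909% of the Cstb level in the control libraries and 0.0450%, 0.0969% and 0.286% in the knockout libraries. Cst3, the secreted cystatin C, had a log2 fold change of 0.36 (SE 0.15). Of the 4 cystatin family genes tested, Csta2 was the 1 that passed. In the fit with the replicate block 2 passed, since the adjusted p of Cst7, the leukocyte cystatin F, was 0.0250 there and 0.195 without the block.

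The cysteine cathepsins, the proteases that stefins bind, were higher or did not pass. Of 8 tested, 4 rose and none fell, beside 2.57% of all genes higher. Ctsl rose from 466, 523 and 461 FPKM to 994, 1378 and 1509 FPKM, a log2 fold change of 1.40 (SE 0.18, limma adjusted p = 0.0113). Ctsk, best known from osteoclasts, rose by a log2 fold change of 1.19 (SE 0.20, adjusted p = 0.0196), Ctsb by 0.59 (SE 0.13, adjusted p = 0.0423) and Ctss by 0.58 (SE 0.12, adjusted p = 0.0325), all by limma. With the replicate number as a block Ctsb and Ctss lost the call, and their adjusted p-values were 0.0613 and 0.0508. By voom Ctsb lost the call (adjusted p = 0.0534). The number called was 0 without knockout replicate 2 or control replicate 2 and 1 without knockout replicate 1. It was 2 with no filter, without knockout replicate 3 or without control replicate 1, and 4 without control replicate 3. The summed level of the 10 cathepsins with a row was 5869 to 6181 FPKM in the control and 8952 to 9415 FPKM in the knockout libraries.

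Of the 7 further genes of the S100 list, which includes the binding protein S100pbp, 0 passed by limma, with 3 at an unadjusted p under 0.05 and 1, higher in knockout, past the threshold by voom, by median-of-ratios scaling or without control replicate 1, and 3 without control replicate 3. S100a4, S100a6 and S100a11, which lie near S100a8, had log2 fold changes of 0.66 (SE 0.33), 0.58 (SE 0.30) and 0.58 (SE 0.22). S100a6 was at 87.4, 151 and 219 FPKM in the control libraries and at 212, 215 and 216 FPKM in the knockout libraries. The 10 tested genes nearest to S100a8 in gene order had log2 fold changes from -0.42 to 0.88, against -1.58 for S100a8 itself.

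**Figure D3:**
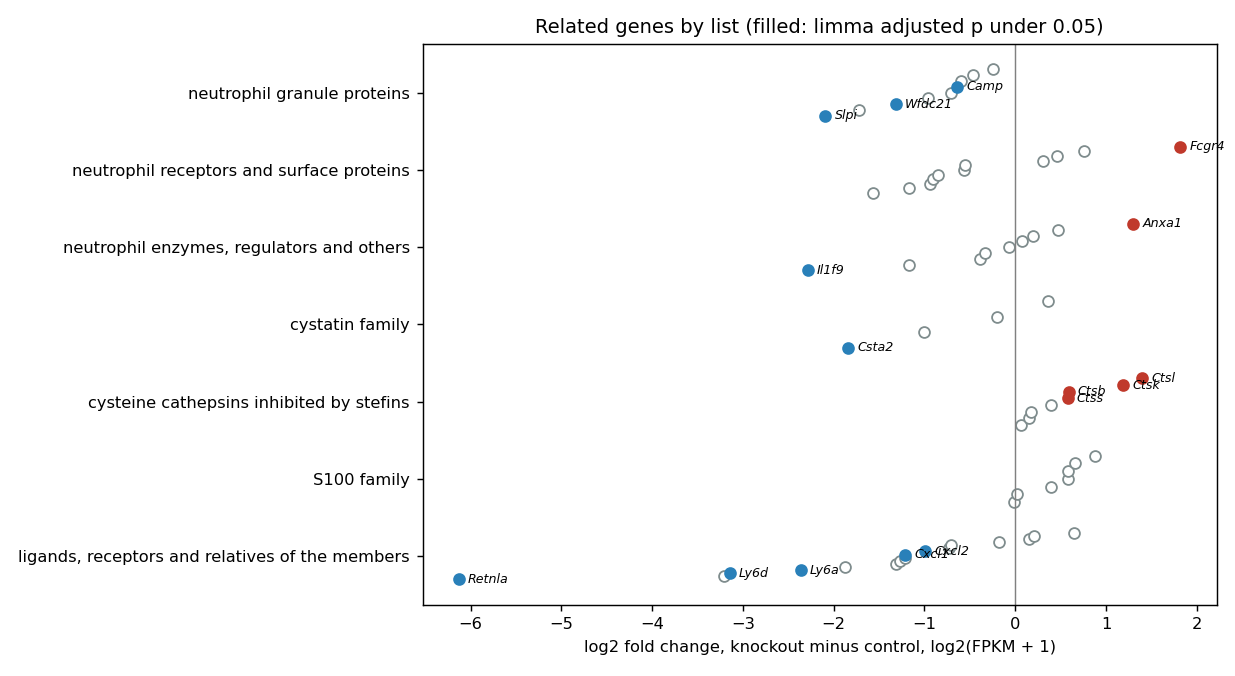
Log2 fold change, knockout minus control on the log2(FPKM + 1) scale, of the tested genes of 7 lists, 1 point a gene, with genes past a limma adjusted p of 0.05 filled in blue (lower) or red (higher) and named. Filled points of the cathepsins are all higher, and those of the granule proteins and of the ligands, receptors and relatives are all lower.

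Of 16 tested ligands, receptors and relatives of the 10 genes, 5 were lower and none was higher, beside 4.74% lower and 2.57% higher of all genes. The number called was 0 without knockout replicate 1, knockout replicate 2 or control replicate 2, and 1 with no filter on low values. Cxcl1 and Cxcl2, ligands of Cxcr2, fell by 1.21 (SE 0.22, limma adjusted p = 0.0254) and by 0.99 (SE 0.16, limma adjusted p = 0.0197) on the log2 scale. Cxcl2 was at 7240.4, 8588 and 8460 FPKM in the control and at 4361, 3345 and 4593 FPKM in the knockout libraries, while the receptor itself was at the limit of detection. Cxcl3 (-1.88, SE 0.46) and Cxcl5 (-3.20, SE 0.97) did not pass. With the replicate number as a block the adjusted p of Cxcl5 was 0.0459. Csf3, the granulocyte growth factor, had a log2 fold change of -1.22 (SE 0.29) and did not pass. Retnla, the relative of Retnlg, fell by 6.13 (SE 1.16, limma adjusted p = 0.0283). Ly6d and Ly6a, of the gene family of Ly6g, had log2 fold changes of -3.14 (SE 0.40, adjusted p = 0.0113) and -2.36 (SE 0.43, adjusted p = 0.0262), both by limma.

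The profile of Stfa3 over the 6 libraries was compared with that of 9029 other genes by the root mean square difference of centred log2(FPKM + 1) values. The nearest genes were Fabp7 (0.51), a fatty acid binding protein, Prg4 (0.53), proteoglycan 4 of resident peritoneal macrophages, Cd79a (0.59) and Cd79b (0.62), the signalling chains of the B cell receptor, and the complement gene C4b (0.66). Ctla2b, Gsta3, the B cell gene Ms4a1, the scavenger receptor Marco and the B cell coactivator Pou2af1 followed. Timd4 held place 22, Cma1, the mast cell chymase, place 26, and Csta2 place 49. S100a8 held place 119, Retnlg 591, Lcn2 6310 and S100a9 7115. This order uses the values of Stfa3 that chose it and follows the size of the decrease for most of these genes, with Retnlg at place 572 and Lcn2 at place 6308 among the decreases, so it is given as a description. Fabp7 measured 84.7, 82.7 and 33.8 FPKM in the control and 5.37, 7.65 and 11.2 FPKM in the knockout libraries, and the order of libraries was close to that of Stfa3.

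**Figure D4:**
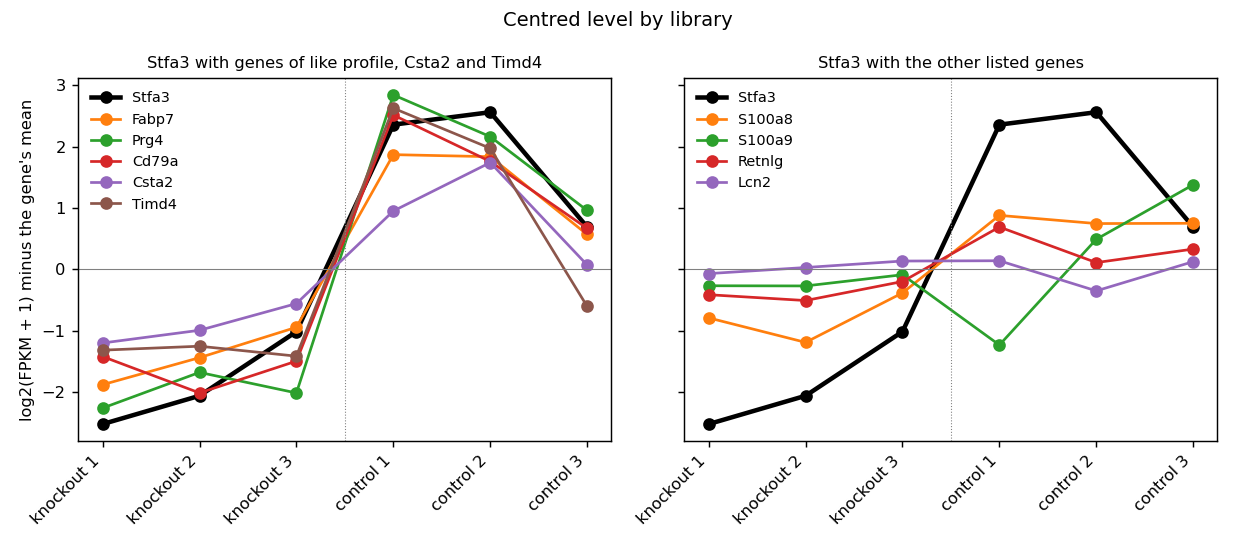
Centred log2(FPKM + 1) of Stfa3 and of genes with a like profile, Csta2 and Timd4 (left) and of the other listed genes in the fit (right), in the 3 knockout and 3 control libraries. Stfa3, Prg4, Cd79a, Csta2 and Timd4 are lowest among the controls in control replicate 3, where S100a9 is at its highest.

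Markers of several other peritoneal cells differed between the groups. Over all genes tested, 4.74% were lower and 2.57% were higher in the knockout libraries. All 5 tested B cell markers were lower in the knockout libraries by limma, with a summed level of 115, 78.9 and 27.5 FPKM in the control and 2.78 to 5.52 FPKM in the knockout libraries. All 5 tested mast cell markers (Tpsb2, Cma1, Cpa3, Mcpt4 and Kit) were lower too. Their sum with Fcer1a, which was not tested, was 38.2 to 49.3 FPKM in the control and 1.89 to 2.27 FPKM in the knockout libraries. This sum was not low in control replicate 3. With the replicate block 4 of the 5 tested markers were called, since Kit, the stem cell factor receptor, was lost (adjusted p = 0.0538). Of 6 tested markers of large peritoneal macrophages, the resident cells that carry Tim-4, 4 were lower (Prg4, Vsig4, Alox15 and Icam2). The sum of the 6, with the untested Gata6, was 157, 99.9 and 44.5 FPKM in the control libraries. It was 4.87 to 9.81 FPKM in the knockout libraries, and it includes Timd4, the targeted gene. Without control replicate 2 the numbers of B cell, mast cell and large macrophage markers called were 0, 4 and 0, and without knockout replicate 1 they were 0, 4 and 1. Without knockout replicate 2 they were 0, 4 and 2, without control replicate 3 they were 5, 5 and 6, and by voom they were 1, 5 and 3. The markers of small peritoneal macrophages and monocytes went in both directions, with 2 of 5 tested lower (Plac8 and Irf4) and 1 higher (Fcgr4). Their sum, with the untested Ccr2 and Cx3cr1, was 45.7 to 49.4 FPKM in the control and 51.9 to 91.0 FPKM in the knockout libraries. None of the 5 tested was called without knockout replicate 1, knockout replicate 2 or control replicate 2. By voom, with no filter or without knockout replicate 3 the 1 called was Fcgr4, and with median-of-ratios scaling Plac8 was lost (adjusted p = 0.0559). The summed eosinophil markers were 1.17 to 1.56 FPKM in the control and 0.135 to 0.577 FPKM in the knockout libraries. T cell markers summed to 0.866 to 2.83 and 0.733 to 1.37 FPKM, keratinocyte markers to 0.0828 to 0.885 and 0.340 to 0.877 FPKM, and mesothelial and fibroblast markers to 2.04 to 11.5 and 10.2 to 25.4 FPKM, in control and knockout libraries. The part of these cells in the levels of Stfa3 and S100a8 was not tested, and in bulk RNA fewer cells of a type and less RNA per cell cannot be told apart.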

How the data were processed

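RNA of PEMs was sequenced in 3 knockout and 3 control libraries. The authors deposited 1 table, in which the FPKM values per library were made from reads per gene, and the signal columns are mean reads per group after division by DESeq2 size factors. The submitters' processing notes name mm9. The aligner, counting and annotation are not given in the sources used here. Fold change, p-value and q-value columns of the authors were not used. The table lists genes with an overall mean of at least 1.11 reads. Whole reads were recovered for 100% of the values (tolerance 0.01). No per-sample column was left unused.

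Log2(FPKM + 1) was fitted with limma 3.58.1 in R 4.3.3 (eBayes with a trend) over the 9030 genes with a mean of at least 1 FPKM in a group. P-values were two-sided with Benjamini-Hochberg adjustment over all of them, the threshold was 0.05, and fold changes understate the change of low genes. The fit was also run on simulated reads drawn with a fixed spread, which need not be that of these libraries, and nothing is read from that run. With 3 libraries against 3 an exact permutation test cannot go below p = 0.1, and none was run. The members and lists were chosen with earlier results of these data known. The genes named were all 10 genes, from each list those past the threshold (up to 4) and the 2 with the highest level, defining markers at 0, the 10 nearest to Stfa3, Timd4 and Lyz2. Markers at the highest level in lists of other cells were given in sums. Any other gene was picked once its values had been seen. Alternatives were no filter, a filter of 5 FPKM, a pseudocount of 0.1, a replicate block, median-of-ratios scaling, voom on recovered reads and leaving out each library. Deviations from the group means correlated by 0.109, 0.110 and 0.304 between libraries of the same number. This check alone does not show that the numbers pair the samples. The main fit took no pairing, and the replicate block was run as an alternative. Knockout replicate 2 correlated more with control replicate 1 (0.291) than with control replicate 2. Sequences are from RefSeq GRCm38.p6 and GENCODE M21, used without the coordinates of the table.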

Additional observations from a re-analysis of the deposited data

How the results depend on the processing

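The log2 fold changes of Stfa3, S100a8 and Retnlg were below 0 under each alternative run, while S100a9 and Lcn2 changed sign under some. The number of listed genes with a fitted level lower in knockout was 4 of 5 and became 2 of 3 with a filter of 5 FPKM, which removes S100a9 and Retnlg, and 3 to 5 with each library left out. The number of all genes called was 660 and became 436 with a filter of 5 FPKM, which tests 5779 genes, and 8 to 1278 with each library left out. The other neutrophil genes called numbered 6, with 3 without a filter and 0 to 13 with each library left out. The cystatin, S100 and partner genes called numbered 10, with 3 without a filter, where 15415 genes are tested, and 0 to 15 with each library left out. At 0 calls, without control replicate 2, 11 of the neutrophil genes and 14 of the partner genes had an unadjusted limma p under 0.05. With the replicate block 855 genes were called, 352 of them higher. The block lost the calls of Camp (adjusted p = 0.0529), Ctsb and Ctss, and added those of Fpr1, Trem3, Cst7 and Cxcl5. Among the cell markers it lost Kit and added Timd4 and Col1a1. Of the 16 related genes called, 0 reversed under the alternatives run, 10 lost the call without a filter and 5 by voom. The count model named for deposited counts was replaced by voom, since the table holds FPKM. Depth limits S100a9, Retnlg, Cxcr2, Camp, Wfdc21 and Csta2, with at most 161 reads in a library, and intervals for a count of 0 cover counting error only.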
